A study of Mus musculus with 6 samples.

Results

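The genes of the male-specific lethal (MSL) complex were examined in mouse testis together with a retrocopy of Msl3 and the RNA helicase gene Dhx9. The 6 genes (Msl1, Msl2, Msl3, Kat8, Msl3l2 and Dhx9) were taken by symbol from tables of 53700 gene identifiers, and their reads were taken from the strand column that holds 96.0% to 96.2% of the stranded reads. RNA was extracted from testes at postnatal day 45 from 3 mice with the genotype MSL3 WT and 3 with the genotype MSL3 cKO, a conditional knockout of a floxed Msl3 allele. All 6 mice carry the strain label Msl3em1Forni/C57BL/6J, so the label does not separate the groups, and each mouse gave 1 library. The recombinase and the promoter that drives it, the exons it removes, and whether the WT mice also carry floxed alleles or the recombinase are not given in the sources used here. The question behind the comparison is whether loss of Msl3 affects spermatogenesis, and for these genes it is how the partners and the retrocopy of Msl3 are expressed in the libraries of either label.

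The MSL complex acetylates lysine 16 of histone H4. Msl1 is the scaffold on which the complex is built, and Msl2 is a RING-finger ubiquitin ligase. Msl3 carries a chromodomain, which contacts chromatin, and an MRG domain. Kat8 (also called MOF) is the acetyltransferase. Kat8 also works in a separate assembly, the NSL complex. In fruit flies the complex raises output from the single male X chromosome with the help of the helicase MLE, whose mammalian homolog is Dhx9. In mammals Dhx9 is a general RNA and DNA helicase and is not held to be a stable MSL subunit.

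Gene models came from GENCODE M21 on GRCm38, the assembly also called mm10, which the submitters' processing notes name. Msl3 lies on the X chromosome at 168654117 to 168673898 on the minus strand, and its principal transcript has 13 coding exons. Msl3l2 lies on chromosome 10 at 56106917 to 56116880 on the plus strand, with a coding sequence of 1113 bases held in 1 exon of 2. The other members are on chromosome 11 (Msl1, 98795516 to 98807859), chromosome 9 (Msl2, 101074101 to 101104800), chromosome 7 (Kat8, 127912516 to 127925837) and chromosome 1 (Dhx9, 153455758 to 153487660). Msl3 is thus the X-linked member, and the single coding exon of Msl3l2 fits its label as a retrocopy, a gene copy made from a spliced RNA.

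The coding sequences of Msl3 (1575 bases) and Msl3l2 were aligned to see whether reads of 75 bases can tell them apart. A local alignment spanned bases 462 to 1569 of Msl3 and 81 to 1107 of Msl3l2, counted from the first coding base, and 755 of its 1111 columns (68.0%) were identical, with 269 mismatches and 87 gap columns. The aligned part of Msl3 came from 9 exons, and the coding bases of Msl3 before it had no counterpart in the alignment. Among 493 ungapped windows of 75 bases, the mismatches ran from 6 to 33 with a median of 18, and the longest identical run was 32 bases. The window with the fewest mismatches is shown because a read from it is the hardest to assign; it lies in exons 12 and 13 of Msl3 (between 168654956 and 168657024, minus strand) and in exon 2 of Msl3l2 (56116135 to 56116209, plus strand). Capitals mark the 6 mismatches, and both are written 5′ to 3′ along the gene.
Msl3: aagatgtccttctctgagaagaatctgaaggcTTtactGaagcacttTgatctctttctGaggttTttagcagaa
Msl3l2: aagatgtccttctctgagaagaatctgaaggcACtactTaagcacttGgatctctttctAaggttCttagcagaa
The window with the most mismatches, 33, shows the other end of the range, in exon 6 of Msl3 (168669532 to 168669606) and exon 2 of Msl3l2 (56115280 to 56115354).
Msl3: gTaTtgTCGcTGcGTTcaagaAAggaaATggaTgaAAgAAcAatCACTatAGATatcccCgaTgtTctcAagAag
Msl3l2: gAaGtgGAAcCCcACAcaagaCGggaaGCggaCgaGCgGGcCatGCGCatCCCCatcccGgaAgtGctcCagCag

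No stretch of 75 bases was shared between the transcripts of these 2 genes, nor between either of them and any other annotated transcript (0 of 2870 stretches for Msl3 and 0 of 2132 for Msl3l2). Msl2 and Dhx9 also shared 0 of theirs, while Msl1 shared 56 of 5430 (1.03%), mainly with the antisense gene Gm12359, and Kat8 shared 48 of 2815 (1.71%), with Prss8. Repeats outside annotated transcripts were not searched. No error-free read of this length from the annotated exons of Msl3 could thus come equally from Msl3l2.

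The regions just upstream of the start sites also differ between the gene and its copy. In the 250 bases before the RefSeq start on GRCm38.p6, Msl3 (first of 2 listed promoters, chrX:168673873-168674122, minus strand) holds 30 CpG dinucleotides, more than 94.1% of 32851 such mouse regions. The same stretch of Msl3l2 (chr10:56106667-56106916, plus strand) holds 5, more than 44.4% of them, and the median is 6. Both are printed with CpG in capitals because the 2 genes differ widely in level. A relation between CpG content and level was not tested.
Msl3: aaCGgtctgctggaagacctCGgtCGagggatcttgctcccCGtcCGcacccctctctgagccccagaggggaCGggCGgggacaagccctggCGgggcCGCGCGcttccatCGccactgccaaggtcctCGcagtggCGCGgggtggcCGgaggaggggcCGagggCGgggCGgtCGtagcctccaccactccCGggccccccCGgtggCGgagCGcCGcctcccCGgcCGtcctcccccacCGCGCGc
Msl3l2: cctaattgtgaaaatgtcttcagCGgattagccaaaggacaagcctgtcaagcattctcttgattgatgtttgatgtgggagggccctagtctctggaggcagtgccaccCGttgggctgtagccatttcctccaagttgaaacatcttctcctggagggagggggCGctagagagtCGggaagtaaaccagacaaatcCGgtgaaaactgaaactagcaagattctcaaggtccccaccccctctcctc
The first listed promoters of the other members held 23 CpG for Msl1, 19 for Msl2, 18 for Dhx9 and 10 for Kat8. Among these first listed promoters Msl3l2 had the fewest. The second listed promoters held 31 CpG for Msl2, 8 for Msl3 and 5 each for Msl1 and Kat8, the last 2 equal to Msl3l2.

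The libraries held 56991431 to 73766444 reads assigned to genes, and 21902 genes had enough reads to be tested. All 46 markers of germ-line, somatic and blood cell types were detected and tested and 0 were called, and the 5 elongating spermatid markers summed to at least 12619 CPM (reads scaled to library size) in every library, as the tissue label says. The 5 epididymis markers were below the count filter, with 1 at 0 reads in all libraries and summed levels of at most 0.445 CPM in a library. Summed spermatocyte markers (5 genes) were 977 to 1023 CPM in WT and 1038 to 1059 in cKO, and summed round spermatid markers (5 genes) 987 to 1091 in WT and 942 to 974.7 in cKO, without overlap in either case. Endothelial markers (4 genes) also did not overlap, at 18.5 to 19.8 CPM in WT and 20.3 to 23.9 in cKO. Single markers did not all follow their sum: Sycp3 (log2 fold change -0.12) and Hormad1 (-0.06) were lower in cKO while the spermatocyte sum was higher, and Acr (0.11) was higher while the round spermatid sum was lower. The sums of the other lists overlapped between the groups: spermatogonia, elongating spermatids, Sertoli, Leydig, peritubular myoid and red blood cells, macrophages and epididymis. Single markers of these lists without overlap were Sox9 (0.26) and Wt1 (0.16), higher in cKO, and Hba-a1 (-0.45), lower. The other Sertoli markers were also above 0. Elongating spermatid markers overlapped singly, with Tnp1 (-0.40), Prm1 (-0.20) and Tnp2 (-0.13) below 0 and Gapdhs (0.10) and Prm2 (0.00396) above. For scale, 18.9% of single tested genes had no overlap. The part of the spermatocyte, round spermatid and endothelial sums in the results below was not tested. In whole testis, fewer cells of a type and less RNA per cell cannot be told apart.

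Levels were compared between genes per length, as RPKM, the CPM divided by the length of the exons in kilobases, with the exons of all transcripts of a gene merged. Kat8 and Msl1 were the most abundant members, Msl3l2 came next, Dhx9 was intermediate, and Msl2 and Msl3 were the least abundant. Kat8 ranged from 46.8 to 55.6 RPKM over the 6 libraries and Msl1 from 44.8 to 56.8, so these neighbours were not separated: Kat8 was above Msl1 in 4 of 6 libraries. Msl3l2 ranged from 31.4 to 37.0 RPKM, below Msl1 in every library. Dhx9 ranged from 11.8 to 16.02 RPKM, again without overlap with its neighbours. Msl2 (6.12 to 7.42 RPKM) and Msl3 (5.15 to 6.57 RPKM) overlapped, although Msl2 was above Msl3 in 5 of 6 libraries. Of the tested genes, 93.7% lay below Kat8 in mean RPKM, 93.5% below Msl1, 90.7% below Msl3l2, 80.3% below Dhx9, 68.2% below Msl2 and 65.4% below Msl3. The level of Msl3 in testis was therefore low among its partners but not low among expressed genes.

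**Figure D1:**
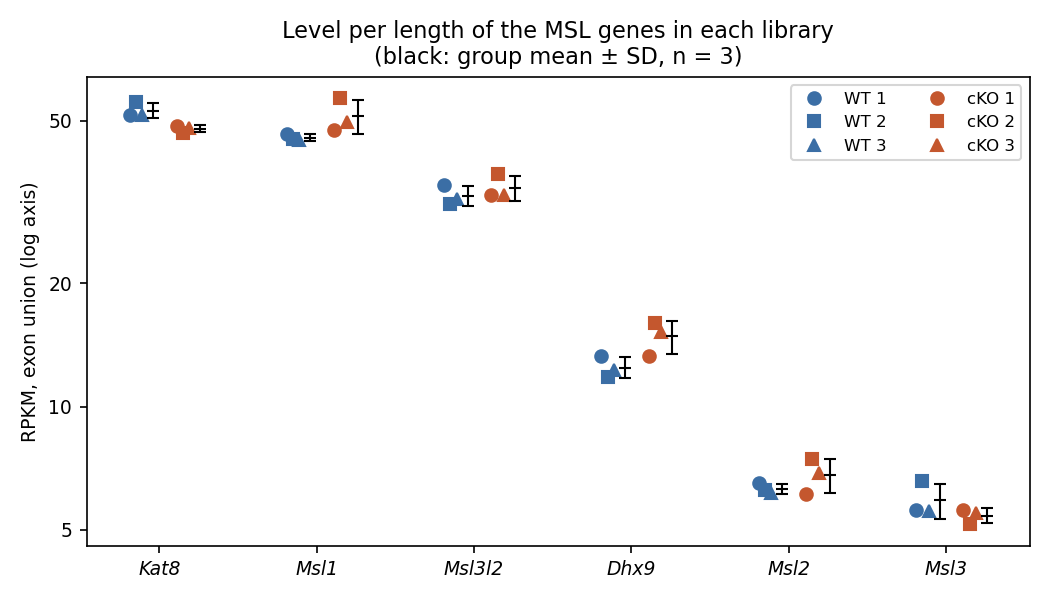
Level per length (RPKM, log axis) of the 6 genes in each library, ordered by mean, with WT libraries in blue, cKO libraries in orange and the group mean ± SD (n = 3) in black. Kat8 and Msl1 lie near 50 RPKM, Msl3l2 between 31.4 and 37.0, and Msl2 and Msl3 between 5.15 and 7.42.

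The order depended in part on the length used. With the longest transcript in place of the merged exons, the mean level was 92.2 RPKM for Kat8, 57.3 for Msl1, 33.5 for Msl3l2, 28.4 for Dhx9, 7.54 for Msl2 and 6.77 for Msl3. Kat8 then exceeded Msl1 in all 6 libraries without overlap, and the ranges of Msl3l2 and Dhx9 overlapped, with Msl3l2 higher in all 6. The place of Msl2 and Msl3 below the other 4 members was the same under both lengths.

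The retrocopy was more abundant than the gene it derives from in every library. The ratio of Msl3l2 to Msl3 in RPKM was 6.26, 4.78 and 5.82 in WT 1, 2 and 3, and 5.90, 7.18 and 5.98 in cKO 1, 2 and 3. The groups overlapped, with means of 5.62 ± 0.761 (SD, n = 3) in WT and 6.35 ± 0.719 (SD, n = 3) in cKO. It rests on 829 to 1226 reads of Msl3 and 4107 to 5132 reads of Msl3l2 in a library. With the longest transcript as the length, the ratio over the 6 libraries ran from 3.98 to 5.99. Gene counts do not show which exons of Msl3 were read, so the ratio in cKO includes any Msl3 RNA that lacks the floxed part.

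Msl3l2 also stood out in reads from the opposite strand. Antisense reads made up 9.65%, 9.02% and 10.2% of its stranded reads in WT 1, 2 and 3, and 10.01%, 7.84% and 9.34% in cKO 1, 2 and 3. In the other 5 members that share was at most 0.437% in any library, and Msl3 had 3 antisense reads against 6080 sense reads over the 6 libraries. Among 12660 protein-coding genes with at least 1000 such reads, the median share was 0.306%, and 90.2% of genes lay below the pooled 9.36% of Msl3l2. Msl3l2 lies wholly inside Tbc1d32, a gene on the opposite strand, without overlapping its exons. Tbc1d32, named here after its values were seen, had a mean level of 20.9 ± 0.961 CPM (SD, n = 3) in WT and 22.8 ± 1.76 CPM (SD, n = 3) in cKO (edgeR adjusted p = 0.504). Whether the antisense reads belong to that gene was not tested. The antisense reads are not in the Msl3l2 counts used here.

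**Figure D2:**
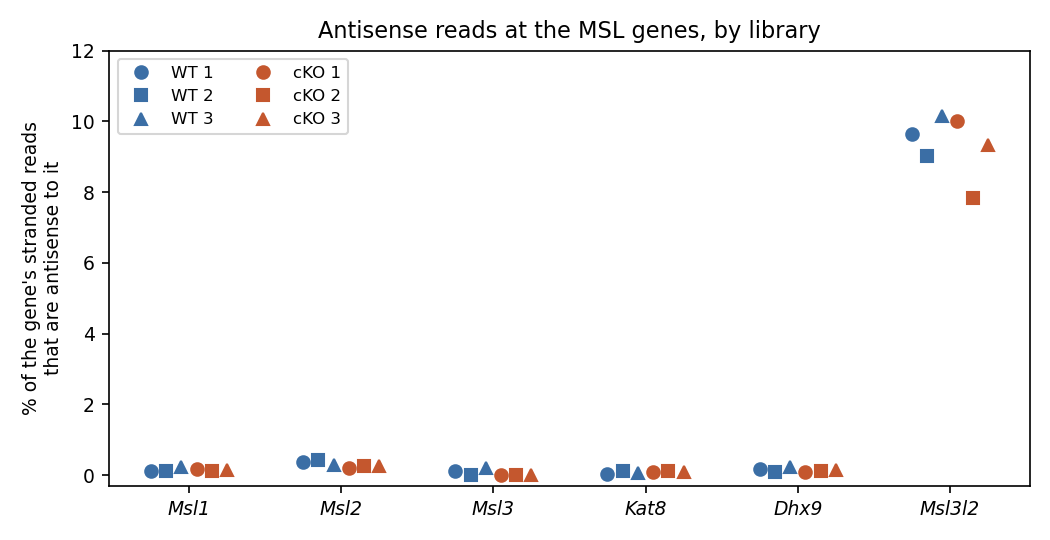
Share of the stranded reads of each gene that are antisense to it (%), by library, WT in blue and cKO in orange. Msl3l2 lies between 7.84% and 10.2%, and the other 5 genes at or below 0.437%.

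Overlap with neighbours touched 2 other members. Exons of Msl1 overlap Gm12359 on the opposite strand by 266 bases and Casc3 on the same strand by 15 bases, and exons of Kat8 overlap Prss8 on the opposite strand by 122 bases. Unstranded counting, which drops reads in such overlaps, kept 89.9% to 91.4% of the Msl1 reads and 97.8% to 98.2% of the Kat8 reads. Gm12359 and Prss8 had at most 22 reads in a library, and Casc3 had a level of 53.6 ± 1.88 CPM (SD, n = 3) in WT and 58.0 ± 1.80 CPM (SD, n = 3) in cKO (edgeR adjusted p = 0.451). The log2 fold changes of Msl1 and Kat8 with unstranded counts had the same sign as with stranded counts, and neither was called.

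The cKO and WT libraries were then compared in a fit over all 21902 genes (edgeR quasi-likelihood test, Benjamini-Hochberg adjustment over all genes). Differences between the groups were small for all 6 genes, from 90.3% of the WT level for Kat8 to 119% for Dhx9, and 0 of the 6 passed the adjusted threshold of 0.05. Over all genes 4 passed, 0.0183% of those tested. At an unadjusted p under 0.05 there were 3 of the 6 (Dhx9 and Msl1 higher in cKO, Kat8 lower), where 13.9% of all genes reached that level. That number was 1 of 6 without WT 2, WT 3, cKO 2 or cKO 3, 2 without WT 1 and 4 without cKO 1, in fits where 6.36% to 18.2% of all genes reached it. With all 6 libraries the same 3 had no overlap between the groups, where 18.9% of all genes had none. The 6 mice are described as biological replicates, so the test set each group difference against variation between animals of a label. That variation was estimated with information from all tested genes.

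Dhx9 showed the greatest difference of the 6. Its level was 127, 113 and 118 CPM in WT 1, 2 and 3, and 128, 154 and 146 CPM in cKO 1, 2 and 3. Each cKO library was above each WT library, but cKO 1 exceeded WT 1 by less than 1 CPM. The log2 fold change was 0.25 (SE 0.081; 95% interval 0.08 to 0.43), with an edgeR p of 0.00901 and an adjusted p of 0.288. Without cKO 1 the log2 fold change was 0.32 and the call was gained (edgeR adjusted p = 0.0352), in a fit that called 628 genes; without each other library the adjusted p was 0.127 to 0.730.

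The scaffold gene Msl1 had 253, 246 and 243 CPM in WT 1, 2 and 3, and 259, 309 and 269 CPM in cKO 1, 2 and 3. The WT values lay close together, with a coefficient of variation of 1.96% against 9.43% in cKO, where cKO 2 was far above the other 2. The log2 fold change was 0.17 (SE 0.075; 95% interval 0.01 to 0.34; edgeR adjusted p = 0.341). Without cKO 2 it was 0.10.

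Msl2, the ubiquitin ligase, had 36.5, 35.1 and 34.6 CPM in WT 1, 2 and 3, and 34.4, 41.8 and 38.6 CPM in cKO 1, 2 and 3. The groups overlapped, since cKO 1 was the lowest library of all. The log2 fold change was 0.11 (SE 0.080; 95% interval -0.06 to 0.29; edgeR adjusted p = 0.554), and 0.05 without cKO 2 and 0.18 without cKO 1.

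Msl3 itself, the targeted gene, had 16.03, 18.89 and 15.93 CPM in WT 1, 2 and 3, and 16.04, 14.81 and 15.80 CPM in cKO 1, 2 and 3. Most libraries lay close together, with WT 2 above them and cKO 2 below, and the groups overlapped. Its log2 fold change was -0.12 (SE 0.088; 95% interval -0.32 to 0.07; edgeR adjusted p = 0.551), and -0.04 without WT 2. Since the count of the targeted gene does not check the labels, the groups are called by their labels throughout.

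Kat8, the acetyltransferase, had 149, 161 and 149 CPM in WT 1, 2 and 3, and 140, 135 and 139 CPM in cKO 1, 2 and 3. All cKO libraries were below all WT libraries. The log2 fold change was -0.15 (SE 0.064; 95% interval -0.29 to -0.01; edgeR adjusted p = 0.342), and it stayed between -0.17 and -0.11 when each library was left out in turn.

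The retrocopy Msl3l2 had 74.6, 67.1 and 69.0 CPM in WT 1, 2 and 3, and 70.3, 79.1 and 70.3 CPM in cKO 1, 2 and 3. The groups overlapped, and WT 1 was above 2 of the 3 cKO libraries. The log2 fold change was 0.06 (SE 0.074; 95% interval -0.10 to 0.22; edgeR adjusted p = 0.755), and 0.00286 without cKO 2. The 95% interval runs from 93.3% to 116.7% of the WT level.

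The balance among the 4 core genes can be given without reference to library size. In summed RPKM, Msl1 made up 42.2%, 39.8% and 41.4% in WT 1, 2 and 3 and 44.1%, 48.9% and 45.1% in cKO 1, 2 and 3, while Kat8 made up 46.8%, 48.9% and 47.8% in WT and 45.0%, 40.3% and 43.7% in cKO. With merged exons Kat8 was thus above Msl1 in the 3 WT libraries and in cKO 1, and below it in cKO 2 and cKO 3. This order depended on the length used. With the longest transcript, Kat8 was above Msl1 in all 6 libraries, at 51.1% to 59.8% against 31.4% to 40.1%. Neither share overlapped between the groups under either length. Msl1 and Kat8 make up most of the sum, so a rise in the share of either goes with a fall in the other. Both genes also had no overlap in CPM, as had 18.9% of all tested genes, so the shares are not a separate result. The shares of Msl2 (5.49% to 6.39%) and Msl3 (4.43% to 5.78%) overlapped between the groups. The sum itself was 111 ± 2.74 RPKM (SD, n = 3) in WT and 111 ± 4.32 RPKM (SD, n = 3) in cKO.

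Single libraries carried much of the variation. cKO 2 held the highest value of 4 members (Msl1, Msl2, Msl3l2 and Dhx9) and the lowest of the other 2 (Msl3 and Kat8), so it was at one end for all 6. WT 2 was at the opposite end for 4 of them, highest for Msl3 and Kat8 and lowest for Msl3l2 and Dhx9. These 2 libraries were also the most often extreme over all 10051 tested genes that averaged 10 CPM or more: cKO 2 was highest or lowest in 53.5% and WT 2 in 52.1%, against 18.8% to 36.6% for the other 4. The ratio of the highest to the lowest library ran from 1.18 for Msl3l2 to 1.36 for Dhx9.

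**Figure D3:**
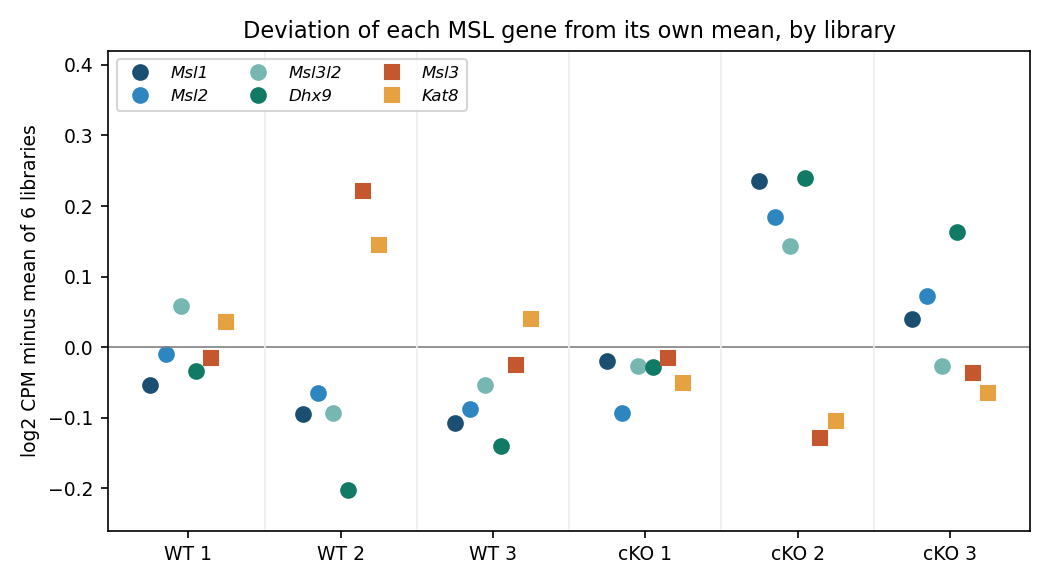
Deviation of each gene from its own mean over the 6 libraries (log2 CPM), by library. In cKO 2, Msl1, Msl2, Msl3l2 and Dhx9 (circles) lie above 0 and Msl3 and Kat8 (squares) below it, and in WT 2 the 2 sets lie the other way round.

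Over the 6 libraries the members thus moved in 2 sets, as a description of libraries that share the extremes above. Pearson's r of log2 CPM was 0.92 between Msl1 and Msl2, 0.91 between Msl1 and Dhx9 and 0.88 between Msl3 and Kat8. It was negative between Msl3 and Msl3l2 (-0.75) and between Kat8 and Dhx9 (-0.90). The genes most like each member, among 10050 others averaging 10 CPM or more, were Nasp and Muc1 for Msl1 (r = 0.998 each), Ehbp1 and Ppip5k2 for Msl2 (0.996 each), and Hsbp1l1 and Rps23 for Msl3 (0.987 and 0.976). They were Hip1r and Tmem175 for Msl3l2 (0.984 and 0.980), Mrps18c and Med28 for Kat8 (0.997 and 0.996), and G6pd2 and Epas1 for Dhx9 (0.996 and 0.995). Such values are common with 6 libraries: 449 genes had r above 0.95 with Msl1 and 312 with Dhx9, but 21 with Msl3 and 18 with Msl3l2.

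The difference between the groups went with transcript length across the transcriptome. Among tested protein-coding genes divided into 5 equal groups by their longest transcript, the median log2 fold change was -0.09 in the shortest group (up to 1819 bases), -0.01, 0.03 and 0.06 in the next 3, and 0.14 in the longest (from 5135 bases). Kat8 (1579 bases) is in the shortest group, Msl3l2 (2140) and Msl3 (2399) are in the next, and Msl1 (4593), Dhx9 (4616) and Msl2 (4889) are in the group with a median of 0.06. Kat8, Msl1, Msl2 and Dhx9 had the sign of their length group's median. The median of the group of Msl3 and Msl3l2 was near 0 (-0.00575, with 48.0% of its genes above 0). Its sign says little, and Msl3 lay below 0 and Msl3l2 above. After a correction for GC content and transcript length in each library, added after the data were seen, the log2 fold changes were 0.10 for Msl1, 0.07 for Msl2, -0.08 for Msl3, 0.07 for Msl3l2, -0.09 for Kat8 and 0.21 for Dhx9 (edgeR adjusted p from 0.474 to 0.827). Dhx9 then alone of the 6 had an unadjusted p under 0.05 (0.0127). What underlies the relation with length was not tested.

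**Figure D4:**
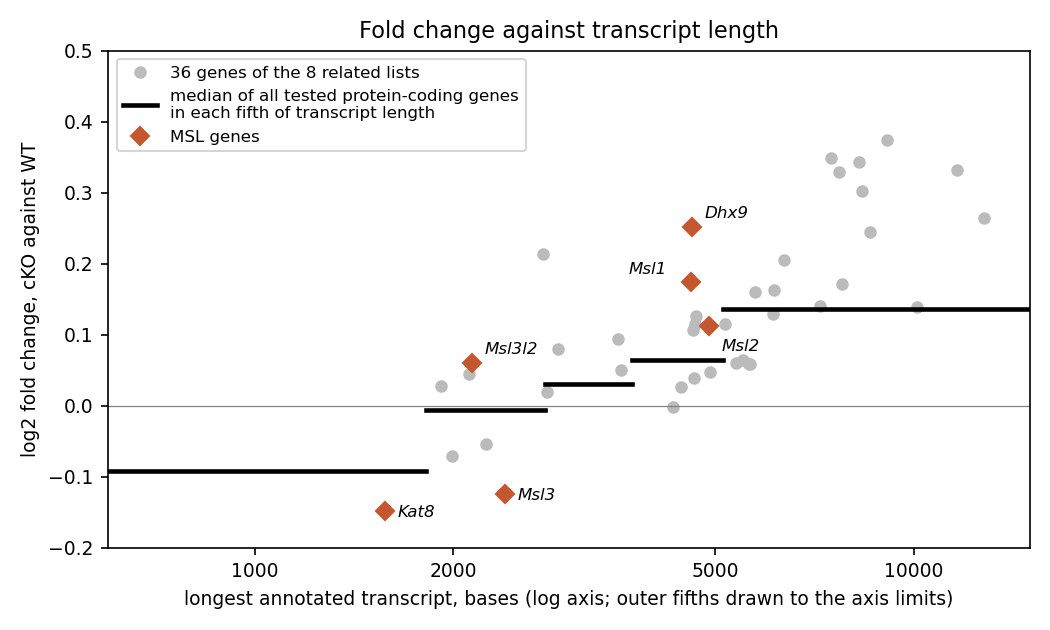
Log2 fold change of cKO against WT (vertical) against the longest annotated transcript (horizontal, log axis) for the MSL genes (orange), the 36 genes of 8 related lists (grey) and, as black bars, the median of all tested protein-coding genes in each of 5 length groups. The medians climb from -0.09 to 0.14, Kat8 lies low on the left, and Dhx9 and Msl1 lie above the bar of their group.

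Genes that work with or beside the complex were compared as 8 lists, chosen with earlier results of these data known. The lists held 36 genes in all, each of them tested. None passed the adjusted threshold (edgeR adjusted p at least 0.276), but the values leaned one way: 33 of 36 had a log2 fold change above 0, with a median of 0.12 against 0.00311 over all genes. At an unadjusted p under 0.05 there were 11, all higher in cKO, where 7.33% of all genes were higher at that level, and 13 had groups that did not overlap, all higher, where 10% of all genes were. Of the 36 genes, 20 are in the longest transcript group. In that group 82.0% of all protein-coding genes were above 0 and 27.8% were higher at an unadjusted p under 0.05. The rest of the listed genes are in shorter groups, where 2.02% to 10.7% of genes were higher at that level. The 30.6% of these lists, taken over all 36 genes, was above each of these shares. List genes and other genes of the same length group were not compared. After the length and GC correction 26 of the 36 were above 0, with a median of 0.04. At an unadjusted p under 0.05 there were then 6 (16.7%), all higher, where 829 of 21851 genes were higher at that level. Without one library at a time the number with an unadjusted p under 0.05 ran from 6 (without cKO 3) to 16 (without cKO 1), all higher. In these fits 906 of 22328 and 2286 of 22255 genes were higher at that level. In the fit without cKO 1, 8 of the 36 passed the adjusted threshold, with 628 of all 22255 genes. With no filter on low counts 6 of the 36 passed, with 757 of all 36605 genes. With DESeq2 1 of the 36 passed, with 193 of all genes.

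The lists are described by their counts and medians, and differences between lists were not tested. H3K36 methylation, the mark that MRG-domain proteins and the MSL complex are known to meet on transcribed genes, had the highest list median: 7 of 7 genes were above 0 with a median of 0.24, and 4 had an unadjusted p under 0.05. In that list Kdm2a, an H3K36 demethylase, had the lowest p, with 68.4 CPM in WT and 81.1 CPM in cKO (log2 fold change 0.24, SE 0.075, edgeR adjusted p = 0.288). All 7 genes are in the longest transcript group, whose shares are given above. After the length and GC correction 6 of 7 were above 0, the median was 0.06 and 1 had an unadjusted p under 0.05. Without one library at a time that number ran from 2 (without cKO 2 or cKO 3) to 6 (without cKO 1), and the median was 0.16 without cKO 2. In the H4K20 list, which holds the enzymes of a mark that the MSL3 chromodomain can bind, 4 of 4 were above 0 and the demethylase Phf8 had the lowest p (log2 fold change 0.21, SE 0.070, edgeR adjusted p = 0.2997). Of these, Phf8 and Kmt5b are in the longest transcript group.

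Among the other MYST acetyltransferases, the enzyme family of Kat8, 3 of 4 were above 0 and Kat6a had the lowest p (log2 fold change 0.37, SE 0.11, edgeR adjusted p = 0.288). Kat8, with its log2 fold change of -0.15, lay below 0 while the median of this list was 0.21. Kat8 (1579 bases) is in the shortest transcript group, where 27.0% of genes were above 0. Kat6a (9113 bases) and Kat6b (7699 bases) are in the longest, where 82.0% were. Kat5 (2245 bases, log2 fold change -0.05) also lay below 0. Kat8 was not compared with these genes at like length. In the NSL complex, the other assembly of Kat8, 8 of 8 were above 0 and the cofactor gene Hcfc1 had the lowest p of all 36 (43.6 CPM in WT and 55.4 CPM in cKO, log2 fold change 0.34, SE 0.082, edgeR adjusted p = 0.276). The NSL genes had a median of 0.07. Of them, Kansl1, Phf20, Hcfc1 and Ogt are in the longest transcript group, where 82.0% of genes were above 0.

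The relatives of Msl3 that carry an MRG domain were Morf4l2, with a log2 fold change of -0.07 (SE 0.079, edgeR adjusted p = 0.725), and Morf4l1, named after its values were seen, with 0.04 (SE 0.061, edgeR adjusted p = 0.818). Per length, Morf4l1 was at 72.3 RPKM over the 6 libraries and Morf4l2 at 12.8, above the 5.65 of Msl3. Msl3 was thus the least abundant of the 4 genes of this family measured here, Msl3l2 included.

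Among the homologs of other factors known from fly dosage compensation, 3 of 4 were above 0, and Tpr, a nuclear pore protein, had the lowest p (131 ± 2.69 CPM in WT and 166 ± 27.1 CPM in cKO, SD, n = 3; log2 fold change 0.35, edgeR adjusted p = 0.288). Among the other DExH-box helicases, the enzyme class of Dhx9, 5 of 5 were above 0 with a median of 0.11, and Ythdc2, which is needed for meiosis in the mouse, had the lowest p (log2 fold change 0.14, edgeR adjusted p = 0.397). Dhx9 had a higher log2 fold change, 0.25, than each of these 5, without a test of that difference. Of the homologs and helicases, Rps6ka5, Nup153, Tpr, Dhx36 and Ythdc2 are in the longest transcript group, where 82.0% of genes were above 0. The H4K16 deacetylase genes, which remove the mark that Kat8 sets, had a median of 0.04, with Sirt2 lowest in p (log2 fold change 0.04, edgeR adjusted p = 0.826).

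**Figure D5:**
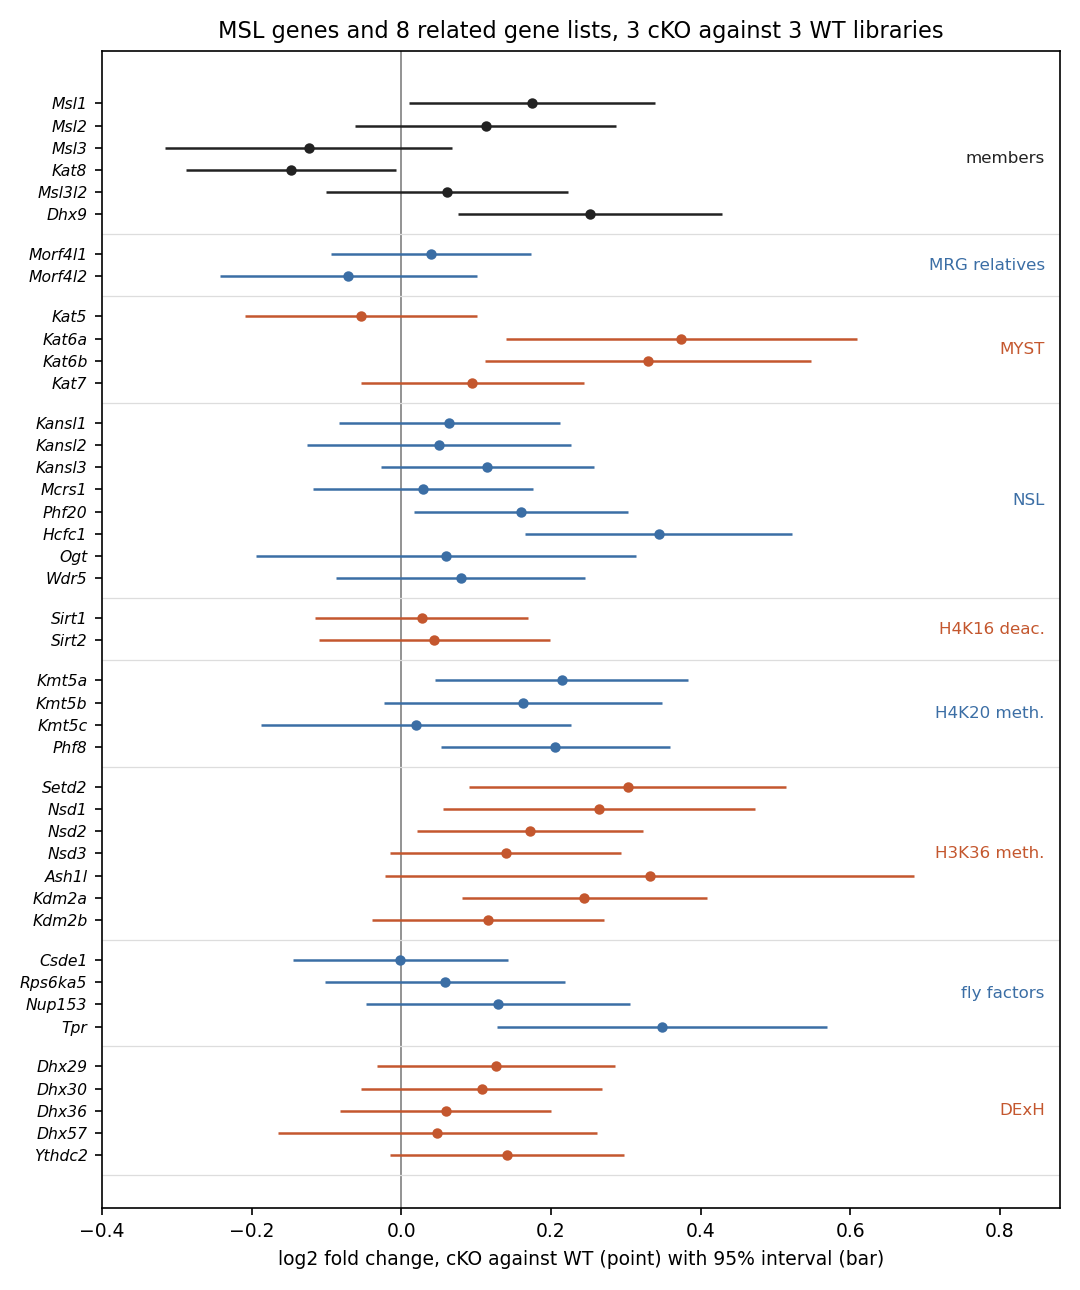
Log2 fold change of cKO against WT for the 6 MSL genes and the genes of the 8 related lists, with 95% intervals from the edgeR fit. The intervals of Dhx9, Msl1 and Kat8 leave out 0, and most list genes lie to the right of 0.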

How the data were processed

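Whole testis RNA of 6 mice was sequenced as single-end reads of 75 bases, per the labels' protocols. The authors deposited 1 table of raw read counts per gene for each library, in the layout of STAR gene counts. The submitters' processing notes name STAR, HTSeq, DESeq2 and mm10, without versions or roles, and the annotation and library kit are not given in the sources used here. The lines that name no gene held 14.8% to 16.7% of the reads and were left out.

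Counts from column 4 (opposite strand) were tested with edgeR 4.0.16 in R 4.3.3: a quasi-likelihood test of cKO against WT over the 21902 genes that passed filterByExpr (minimum count 10), with TMM scaling and a Benjamini-Hochberg adjusted threshold of 0.05. CPM and RPKM were computed from these counts. Symbols came from GENCODE M21, which matched 52147 of 53700 identifiers, and promoters from RefSeq on GRCm38.p6 (all 6 genes matched). Coding sequences were aligned with Biopython 1.88. The procedure was tested on simulated data.

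The members and lists were chosen with earlier results of these data known. Named genes were the 6 members, the gene with the lowest p in each list, genes overlapping a member's exons or sharing over 5% of its 75-base stretches, and the 2 genes most correlated with each member at a mean of at least 10 CPM. Of the listed genes, Rps6ka4 was not analysed here. Same-numbered libraries of the groups correlated at 0.346, 0.261 and -0.0457 in their deviations from the group means. Different-numbered libraries correlated at -0.338 to 0.112, so the values for numbers 1 and 2 were the highest. The labels do not say that the numbers pair mice, so the main fit did not pair them. Whether same-numbered libraries share a source of variation was not tested. Alternatives were RLE or no scaling, other filters, unstranded counts, a robust fit, a replicate block, DESeq2 1.42.0, leaving out each library, and a GC and length correction added after the data had been seen.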

Additional observations from a re-analysis of the deposited data

How the results depend on the processing

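The number of genes called was 4, and it was 757 with no filter on low counts, 2 with unstranded counts and 193 with DESeq2; leaving out 1 library gave 1 to 628, with 628 without cKO 1 and 116 without WT 1. With the replicate number as a block 49 genes were called, and 0 of the 6 members and 0 of the 36 list genes passed under it. At an edgeR unadjusted p under 0.05 the list genes then numbered 15 (41.7%), all higher, against 11 in the main fit. In the block fit 2184 of 21902 genes were higher at that level. For the H3K36 methylation list the number was 6 of 7, against 4 in the main fit. No log2 fold change of a member changed sign under any of the 15 alternatives, and the one call of a member was Dhx9 without cKO 1 (leave-one-out range 0.19 to 0.32). Group sizes of 3 limit the precision: the median SE of a log2 fold change was 0.11 over all genes.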
